A study of Caenorhabditis elegans with 6 samples.

Results

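miR-243 is a microRNA (miRNA) of the nematode Caenorhabditis elegans. It was read here from the 4 spots named for it on each array, out of 576 spots that carried oligos for 108 miRNAs among other sequences. It was singled out because its signal was higher in animals with a spermatogenic germ line, so the difference between the genotypes is given as a description, without a test. Whole adults of 2 temperature-sensitive mutants were kept at 25 °C and harvested 24 hours after the late larval stage L4, as adults of day 1. fem-3(q20ts) is a gain-of-function mutant whose germ line makes sperm and no oocytes at this temperature. fem-2(b245ts) is a loss-of-function mutant whose germ line makes oocytes and no sperm. There were 2 biological replicates of each genotype. Replicate 1 had been hybridised to 2 technical arrays and replicate 2 to 1 array, which gave 6 arrays of 4 biological samples. Both genotypes carried a mutation of the sex determination pathway, and no wild-type array was analysed here.

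A miRNA is a short RNA that guides an Argonaute protein to partly complementary messenger RNAs. Most C. elegans miRNAs are bound by the Argonautes ALG-1 and ALG-2. miR-243 is known for being bound largely by RDE-1, the Argonaute that carries the primary small interfering RNAs of RNA interference. With RDE-1 it is known to pair with a nearly complementary messenger RNA, on which an RNA-dependent RNA polymerase then makes secondary small interfering RNAs. Its gene, mir-243, is on chromosome IV in the WBcel235 annotation. The gene lies inside the span of the protein-coding gene R08C7.12, and the table used gives neither strand nor exons. The mature sequence is not printed because it was not in the files used here.

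The arrays were of 1 colour, hybridised with gel-purified short RNA that had been ligated to a Cy3-bearing oligonucleotide. Values are spot intensities on a linear scale, which the authors scaled to 1 total per array. The median spot lay between 101 and 178, and between 63 and 104 of the 108 miRNA oligos exceeded the Buffer level of their array, which is the 95th percentile of its 32 blank Buffer spots. The genotype labels were set against miR-35 to miR-41, which are known as oocyte and embryo miRNAs. Together the 7 made up 0.353% to 0.478% of the miRNA signal of an array in fem-3(q20ts), against 11.8% to 14.2% in fem-2(b245ts). Of the somatic markers, muscle miR-1 ranged from 950 to 1438 in fem-3(q20ts) and from 1028 to 1547 in fem-2(b245ts). Neuronal miR-124 ranged from 239 to 330 in fem-3(q20ts) and from 175 to 241 in fem-2(b245ts), and intestinal miR-60 from 567 to 772 in fem-3(q20ts) and from 329 to 474 in fem-2(b245ts). The miR-60 ranges did not overlap, and the part of somatic tissue in the results below was not tested. Neuronal lsy-6 had no oligo under that name, and no miRNA was taken here as a marker of sperm. The RNA came from whole animals, so more cells that make miR-243 and more miR-243 per cell cannot be told apart.

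The miR-243 signal was higher on every fem-3(q20ts) array than on every fem-2(b245ts) array. Its mean over the 4 spots was 723 and 611 on the arrays of fem-3(q20ts) replicate 1 and 628 on that of replicate 2, against 154 and 156 on the arrays of fem-2(b245ts) replicate 1 and 195 on that of replicate 2. Averaged over biological samples, miR-243 had an intensity of 647 ± 27.8 in fem-3(q20ts) and 175 ± 28.4 in fem-2(b245ts) (SD, n = 2 each). The difference of mean log2 intensity was 1.89 (standard error 0.31, from limma's fit across all tested miRNAs), which is 3.71-fold. The spread between replicates was small against this difference in both genotypes. With 2 samples a genotype, the smallest two-sided p that an exact permutation test allows is 0.333.

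The single spots showed the same separation. In fem-3(q20ts), the 4 spots read 746, 717, 766 and 665 on the first array of replicate 1. They read 710, 510, 627 and 597 on its second array, and 735, 600, 598 and 578 on the array of replicate 2. All 12 values were 510 or more, and the technical arrays of replicate 1 overlapped.

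In fem-2(b245ts), the 4 spots read 150, 143, 149 and 174 on the first array of replicate 1. They read 141, 178, 154 and 150 on its second array, and 199, 211, 181 and 189 on the array of replicate 2. The replicate 2 spots were all above those of replicate 1, and the highest of the 12 was still less than the lowest fem-3(q20ts) spot. The coefficient of variation over the 4 spots was 6.04% to 13.6% on the fem-3(q20ts) arrays and 6.73% to 10.1% on the fem-2(b245ts) arrays. The 4 spots were printed side by side, so they share any local condition of the array and are not independent replicates. Of the 94 miRNAs tested, 2.13% (miR-243 and miR-229) had all 12 fem-3(q20ts) spots above all 12 fem-2(b245ts) spots. With array means in place of spots, 16.0% had all 3 fem-3(q20ts) arrays on top. miR-243 was chosen by these values, so nothing is read from its place among them.

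**Figure D1:**
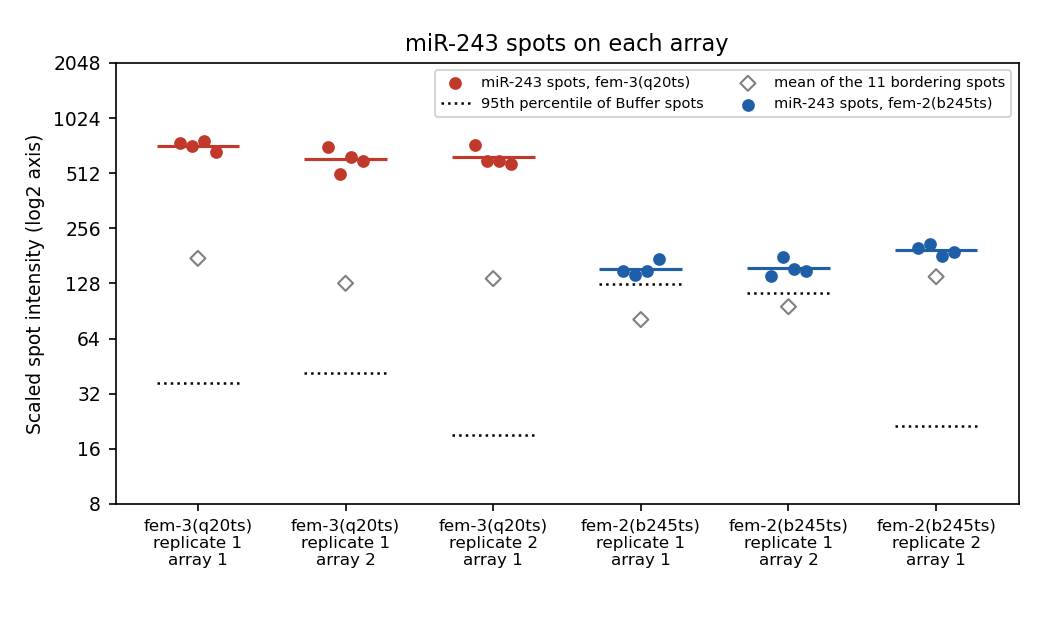
Scaled intensity (log2 axis) of the 4 miR-243 spots on each array, in red for fem-3(q20ts) and blue for fem-2(b245ts), with their mean as a solid line. The dotted line is the 95th percentile of the Buffer spots and the open diamond is the mean of the 11 spots of other oligos that border miR-243. All red spots lie at 510 or above and all blue spots at 211 or below, and on the fem-2(b245ts) arrays of replicate 1 the blue spots are close above the dotted line.

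The 4 sample pairings gave similar sizes. fem-3(q20ts) exceeded fem-2(b245ts) by 2.10 on the log2 scale between the samples numbered 1 and by 1.68 between those numbered 2, whose arrays share a date-like token in their labels. Across the numbers the difference was 1.76 for fem-3(q20ts) replicate 1 against fem-2(b245ts) replicate 2, and 2.02 for fem-3(q20ts) replicate 2 against fem-2(b245ts) replicate 1. Even the dimmest fem-3(q20ts) array exceeded the brightest fem-2(b245ts) array by 1.64. In each of these pairings the excess in fem-3(q20ts) was over 1 on the log2 scale.

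miR-243 varied little between replicates of a genotype. Replicate 1 minus replicate 2 was 0.08 in fem-3(q20ts) and -0.34 in fem-2(b245ts) on the log2 scale. Over the other 93 tested miRNAs the median size of that gap was 0.42 in fem-3(q20ts) and 0.50 in fem-2(b245ts). It was smaller than that of miR-243 for 12 of them in fem-3(q20ts) and for 34 in fem-2(b245ts). Between the technical arrays of replicate 1, miR-243 differed by 0.25 in fem-3(q20ts) and by -0.02 in fem-2(b245ts), and the other miRNAs had median gaps of 0.24 in size in fem-3(q20ts) and 0.42 in fem-2(b245ts).

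In fem-2(b245ts), the signal of miR-243 lay near the blank level on some arrays. Its mean was 19.8, 14.7 and 33.0 times the Buffer level on the fem-3(q20ts) arrays, against 1.21, 1.37 and 9.10 times on the fem-2(b245ts) arrays. The lower multiples belonged to both arrays of fem-2(b245ts) replicate 1, whose Buffer level was 127 and 114, and the multiple of 9.10 to replicate 2, whose Buffer level was 21.5. On the fem-3(q20ts) arrays the Buffer level was 36.5, 41.5 and 19.0. In the replicate 2 samples, with 1 array of each genotype, the Buffer levels were close and the multiples were 33.0 and 9.10. The difference there was 1.68. The part of the Buffer level in the miR-243 difference was not tested. Subtracting the median Buffer spot of each array gave a difference of 1.99 over both replicates. That median was only 25.9 and 12.2 on the arrays of fem-2(b245ts) replicate 1. The subtraction therefore does not remove their Buffer level of 127 and 114, and nothing is read from it about that level.

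The scanner files, used for the 4 arrays of replicate 1, gave the separation before scaling as well. The mean brightness of a miR-243 spot was 840 to 1338 scanner units in fem-3(q20ts) and 348 to 393 in fem-2(b245ts). The local background median around these spots was 207 to 228 in fem-3(q20ts) and 204 to 221 in fem-2(b245ts), so the backgrounds overlapped and the spots did not. Relative to brightness less local background, the scaling lowered the fem-3(q20ts) arrays against those of fem-2(b245ts). The unscaled gap thus also holds a factor common to all spots of an array. The signal-to-noise score ranged from 9.42 to 58.0 in fem-3(q20ts) and from 2.74 to 15.1 in fem-2(b245ts). All 16 spots had a detected status, 0 were flagged, and 0% of their pixels were saturated.

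Spots of 5 other oligos bordered miR-243 on the array (centres within 1.6 spot spacings), 11 spots in all. Their mean was 176 and 128 on the fem-3(q20ts) arrays of replicate 1, against 81.4 and 95.6 on those of fem-2(b245ts). The fem-2(b245ts) means were below the Buffer level of those arrays, 127 and 114. In replicate 2 the mean of the bordering spots was 136 in fem-3(q20ts) and 139 in fem-2(b245ts). The bordering spots were thus brighter in fem-3(q20ts) in replicate 1 and about level in replicate 2, where miR-243 differed by 1.68. Their part in the miR-243 difference was not tested. miR-246 and miR-240 held 4 of the bordering spots each. miR-246 had log2 differences of 1.17 in replicate 1 and -0.08 in replicate 2, and miR-240 had 0.84 and 0.12. Both exceeded the Buffer level on 3 of 3 fem-3(q20ts) arrays and on only 1 of 3 fem-2(b245ts) arrays. Their replicate 1 differences thus rest partly on signal not above the blanks. miR-239b, miR-242 and miR-245 held 1 spot each, and their replicate 1 differences were -0.38, 0.23 and 0.45. These oligos were looked at after their values were seen.

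The rank of miR-243 among the 108 miRNA oligos differed accordingly. With 1 as the brightest, it ranked 28, 30 and 34 on the fem-3(q20ts) arrays, against 64, 60 and 63 on the fem-2(b245ts) arrays. It made up 0.815%, 0.687% and 0.659% of all miRNA signal in fem-3(q20ts), against 0.198%, 0.205% and 0.210% in fem-2(b245ts). Ranks and shares do not depend on a common scaling factor, but the shares hold the large signal of miR-35 to miR-41 in fem-2(b245ts). With those 7 left out, the share was 0.818%, 0.689% and 0.662% in fem-3(q20ts), against 0.225%, 0.239% and 0.244% in fem-2(b245ts). Oligos can differ in how strongly they bind, so a rank on its own says little about the amount of RNA.

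**Figure D2:**
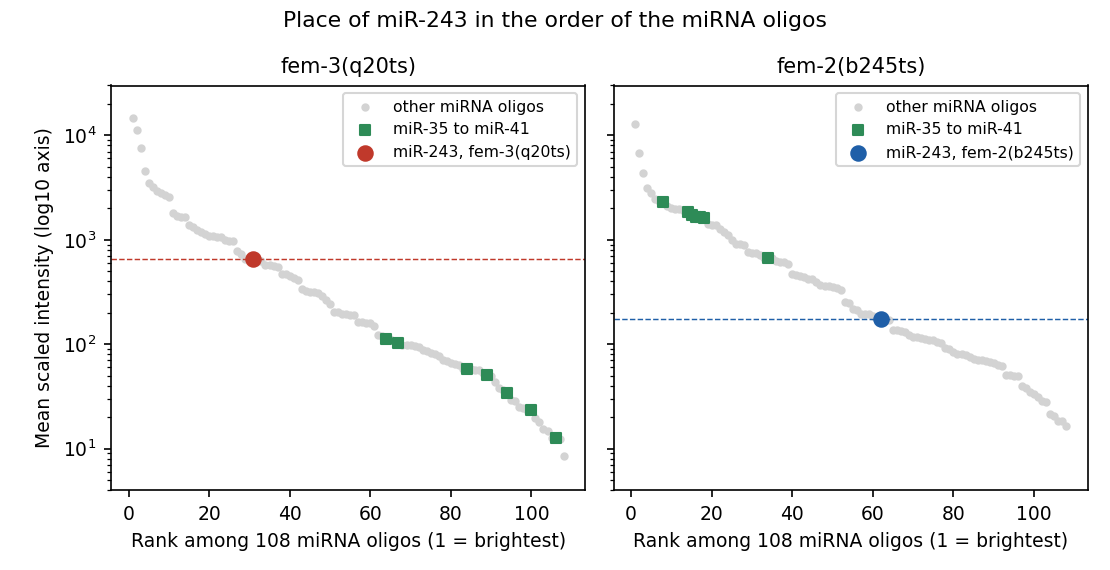
Mean scaled intensity (log10 axis, 2 biological samples) of the 108 miRNA oligos against their rank in fem-3(q20ts), left, and fem-2(b245ts), right. miR-243, the large circle with a dashed line at its level, stood at rank 31 in fem-3(q20ts) and at rank 62 in fem-2(b245ts), while miR-35 to miR-41, the green squares, stood above it in fem-2(b245ts) and below it in fem-3(q20ts).

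Of the other 107 oligos, 21 were dimmer than miR-243 on every fem-3(q20ts) array and brighter than it on every fem-2(b245ts) array, and 0 did the opposite. miR-35 to miR-41 were 7 of the 21. The other 14 were let-7, miR-49, miR-57, miR-61, miR-67, miR-70, miR-74, miR-78, miR-84, miR-85, miR-87, miR-124, miR-239b and miR-250. Among these, let-7 and miR-84 are relatives that act in developmental timing, and miR-124 is known from sensory neurons. A further 25 oligos were brighter and 40 dimmer than miR-243 on all 6 arrays, and the remaining 21 had no constant order. The ratio of miR-243 to another miRNA was higher on all 3 fem-3(q20ts) arrays than on any fem-2(b245ts) array for 89 of the 93 other tested miRNAs. The exceptions were miR-247, miR-253, miR-264 and miR-267. miR-243 was chosen for its higher signal on these same fem-3(q20ts) arrays, so the counts of order and ratio follow largely from that choice. They describe the difference and are not further evidence for it.

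Across all 94 tested miRNAs, the genotypes were compared with limma (two-sided, Benjamini-Hochberg adjusted). An adjusted p under 0.05 was reached by 7 miRNAs that were lower in fem-3(q20ts), all of them in miR-35 to miR-41 (3 where only the 59 miRNAs above the Buffer level on all arrays were tested), and by 1 that was higher, which was miR-243 itself. That is 7.45% lower and 1.06% higher. Because miR-243 was chosen by this contrast, its call is not offered as evidence. With the same 94 miRNAs tested, limma called 0 higher when any 1 of the 4 biological samples was left out (1 to 2 at an unadjusted p under 0.05), and 7 lower each time. It had the largest positive difference of the 94, and lin-4 followed at 1.18, which is 0.71 less. Of the 86 tested miRNAs outside miR-35 to miR-41 and miR-243, 53 had positive differences, and their median was 0.17. Relative to that median, miR-243 was higher in fem-3(q20ts) by 1.72, with 1.88 in replicate 1 and 1.55 in replicate 2.

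**Figure D3:**
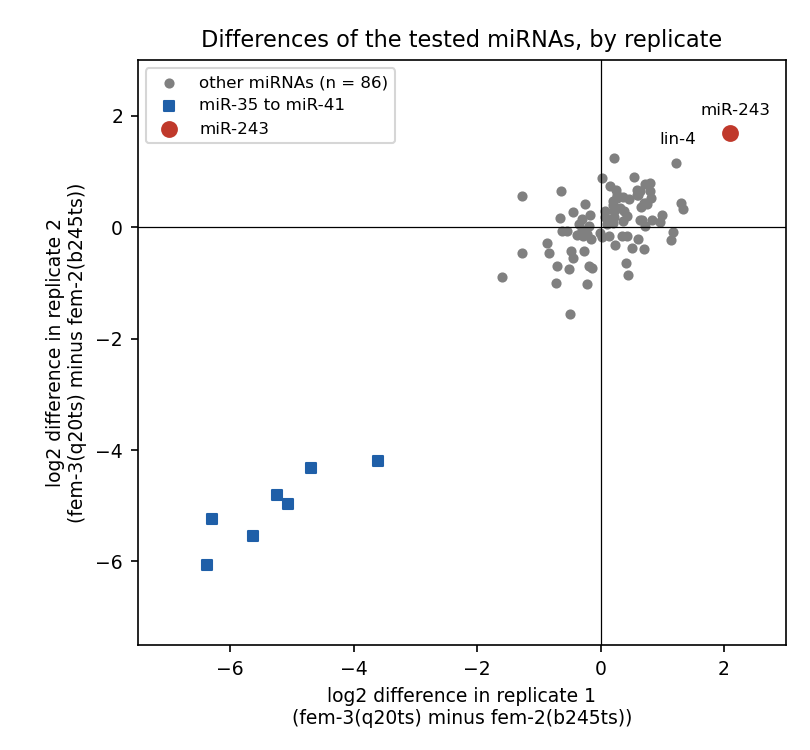
Log2 difference, fem-3(q20ts) minus fem-2(b245ts), of each tested miRNA between the samples numbered 1 (horizontal axis) and between those numbered 2 (vertical axis). miR-243, the red circle at 2.10 and 1.68, lies at the upper right beyond lin-4, and miR-35 to miR-41, the blue squares, lie at the lower left.

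The miRNAs whose profile over the 4 biological samples was nearest to that of miR-243 were lin-4, miR-79, miR-77, miR-80 and miR-86. Likeness was measured as the root-mean-square difference of log2 intensities after each profile was centred on its own mean. It was 0.44 for lin-4, 0.52 for miR-79, 0.56 for miR-77, 0.59 for miR-80 and 0.61 for miR-86, against 0.64 for the sixth and a median of 0.92 over the 93 compared. lin-4, the miRNA that represses lin-14 in developmental timing, had intensities of 1059 and 1609 in fem-3(q20ts) replicates 1 and 2, against 454 and 718 in fem-2(b245ts). Both fem-3(q20ts) samples of lin-4 were higher, but its replicates lay further apart than those of miR-243. Its log2 difference of 1.18 did not pass in the unpaired fit (limma adjusted p = 0.299) and passed with the replicate number as a block (limma adjusted p = 0.0417). miR-80 is a relative of miR-58 and of bantam in flies. The differences of miR-79, miR-77, miR-80 and miR-86 were 0.87, 0.79, 0.73 and 0.66, and none passed (limma adjusted p = 0.379 for the first 3 and 0.390 for miR-86). These miRNAs were picked for their likeness, so their direction follows from the choice.

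**Figure D4:**
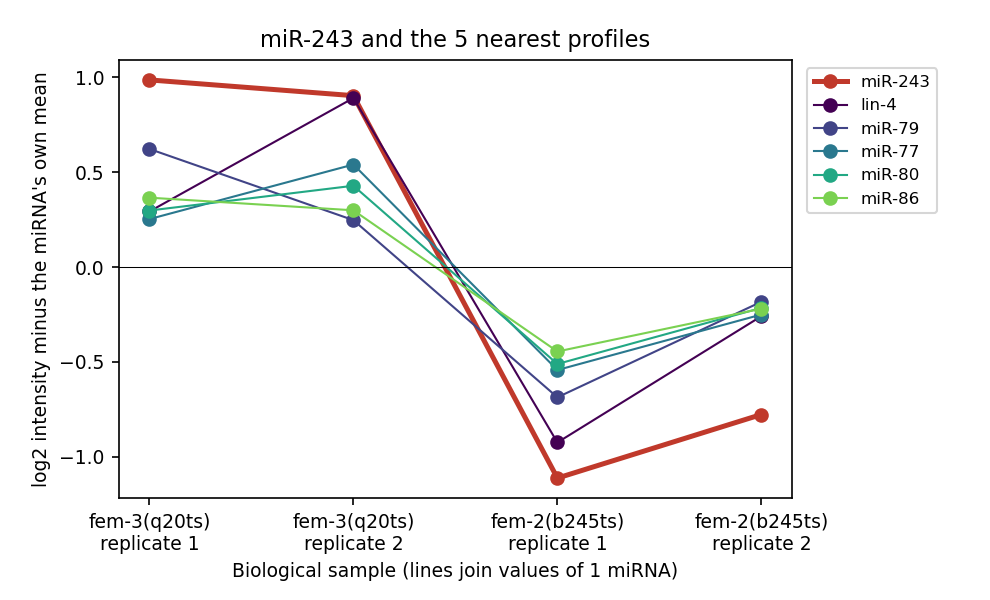
Log2 intensity of miR-243 (thick red) and of its 5 nearest miRNAs in the 4 biological samples, each centred on its own mean. All 6 are above 0 in both fem-3(q20ts) samples and below 0 in both fem-2(b245ts) samples, with miR-243 spanning the widest range, from 0.99 in fem-3(q20ts) replicate 1 to -1.11 in fem-2(b245ts) replicate 1.

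The miRNAs of like brightness had differences of both signs. These were the 5 next brighter and the 5 next dimmer by mean log2 intensity, from 272 to 409. Of these 10, 4 had positive and 6 negative differences, with a median of -0.17, against 0.13 over all 93 other tested miRNAs. In limma 0 of the 10 passed as higher (also 0 at an unadjusted p under 0.05) and 2 as lower, miR-38 and miR-39, both oocyte and embryo miRNAs. Over all tested miRNAs the shares were 1.06% higher, which is miR-243 alone, and 7.45% lower. As 0 of the 93 others passed as higher, the count of 0 was fixed for any list without miR-243. Nothing is read from it. Among the 10, the largest difference in size was that of miR-39 (-5.03) and the smallest that of miR-49 (0.08). The largest positive one was 0.38, for miR-87.

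The miRNAs encoded on the same chromosome also had differences of both signs. Of 15 oligos, miR-243 included, whose names matched a miRNA gene of chromosome IV, 12 besides miR-243 were tested. Their differences were positive for 8 and negative for 4, with a median of 0.31, against 53 positive and 40 negative and a median of 0.13 over all 93 other tested miRNAs. In limma 0 of the 12 passed in either direction (also 0 at an unadjusted p under 0.05). Over all tested miRNAs the shares were 1.06% higher, which is miR-243 alone, and 7.45% lower, all in miR-35 to miR-41. Those are encoded on chromosome II, so the count of 0 passing here was fixed and nothing is read from it. The differences of the 12 ranged from -0.62 for miR-265 to 0.73 for miR-232, the largest in size (limma adjusted p = 0.489). The smallest was that of miR-242, at -0.05. mir-242 and mir-228 are the nearest genes before and after mir-243 on chromosome IV among those with an oligo. miR-242 had intensities of 78.4 and 61.7 in fem-3(q20ts), against 65.5 and 78.0 in fem-2(b245ts). These values overlapped, but miR-242 exceeded the Buffer spots' level on 3 of 3 fem-3(q20ts) arrays and only 1 of 3 fem-2(b245ts) arrays, so its difference rests partly on signal not above the blanks. miR-228 had 205 and 326 in fem-3(q20ts), against 172 and 218 in fem-2(b245ts), which overlapped as well, and its difference was 0.42.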

How the data were processed

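miRNA arrays of 6 hybridisations (4 biological samples) were used. The deposited table gives a linear intensity for every spot, which the authors scaled on total array intensity, per the series' design text. Scanner files of 4 arrays gave unscaled intensity, a deposited signal-to-noise score and the percent of saturated pixels, per the file headers. Their software is not given in the sources used here. These files also supplied the spot names, matched by spot number. A floor of 12.8 was set (10th percentile of positive intensities), and log2 values were averaged over the 4 spots and then over technical arrays. Of 108 miRNA oligos, 94 exceeded the Buffer level on average (an intensity of 37.2) and were fitted with lmFit and eBayes (limma 3.58.1, R 4.3.3), fem-3(q20ts) minus fem-2(b245ts), unpaired, threshold 0.05; the fit was tested on simulated data. Of the 108 names, 100 matched the WBcel235 gene table. miR-243, the lists and the naming rule (the 5 nearest profiles, lin-4, and the largest and smallest difference of each list) were chosen with earlier results of these data known. Lists by GC share, seed or sequence likeness were planned and not made, because no mature sequences were used here. The labels do not say that replicates were separate cultures, so errors measure only the spread between these samples. Alternatives covered scaling, background, floor, spot summary, technical arrays, the test and each sample left out.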

Additional observations from a re-analysis of the deposited data

How the results depend on the processing

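The miR-243 difference of 1.89 stayed positive in all 17 alternatives, from 1.57 to 2.45, and moved by more than the SD of its replicate differences (0.30) in 4. These were median centring (2.24), quantile normalization (2.23), scaling on the spike control (2.45) and scaling on the miRNAs outside miR-35 to miR-41 (1.57). Quantile normalization moves each miRNA by its own amount, and median centring moves every miRNA equally. Both scalings also move the miRNAs equally, except where spots lie at the floor. The median difference of the tested miRNAs was 0.14 in the main setting and went from -0.19 on the miRNAs outside miR-35 to miR-41 to 0.70 on the spike control. miR-243 had the largest positive difference in all 19 alternative fits, which also follows largely from its choice. Relative to the other miRNAs outside miR-35 to miR-41 the difference was 1.72. Against the miRNAs of like brightness it was 2.06, but those include miR-38 and miR-39 of that family, so the reference sets are unlike. Leaving out each biological sample gave 1.72 to 2.06 for the difference, 1.51 to 1.82 relative to the others, mean ranks of 29.0 to 34.0 in fem-3(q20ts) and 62.0 to 63.0 in fem-2(b245ts), and, in limma, 7 lower in each case.

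The count of miRNAs called higher in limma, 1 in the main setting, was 0 when any 1 of the 4 samples was left out and the same 94 miRNAs were tested (1 to 2 at an unadjusted p under 0.05), which left 7 in both directions together. With the filter recomputed on the remaining samples, an alternative chosen after seeing the data, it was 0 when replicate 1 of either genotype was left out, and 1 when replicate 2 of either genotype was left out, for 7 to 8 in both directions together. These fits assume that the lone sample of a genotype varies like the other genotype. With a replicate block 2 were called higher, lin-4 being added (limma adjusted p = 0.0417, against 0.0529 to 0.955 in its other alternatives). The replicate numbers were not taken to pair the samples, although the gaps between replicates 1 and 2 went together in both genotypes (r = 0.711 across 94 miRNAs, which are not independent). Among the 59 miRNAs above the Buffer level on all arrays, 4 were called, 3 lower and 1 higher. That filter left out miR-37, miR-38, miR-40 and miR-41, which exceeded the Buffer level on 1, 2, 1 and 0 of 3 fem-3(q20ts) arrays. The lower count thus reflects their low signal in fem-3(q20ts). Signal over background limits the values of fem-2(b245ts) replicate 1 most.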
